A study of Mus musculus with 8 samples.

Results

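The enzymes of fatty acid oxidation were followed in mouse kidney RNA as 34 genes, taken from a list of mitochondrial and peroxisomal fatty acid oxidation genes by their symbol, out of 77981 genes in the table. All 34 were found under 1 identifier each, and all had a mean of at least 1 TPM (transcript abundance corrected for length and scaled so that libraries have equal totals) over the 8 libraries, the level required for testing. The rule that picks them matches gene symbols. The series, titled for an inducible knockout line of Avp (vasopressin), compares 4 libraries of genotype AVP-flox with 4 of genotype AVP-flox;Cre, here also called the Cre libraries. Every library comes from kidney with the cell type label IMCD (inner medullary collecting duct), from tamoxifen treatment, and from animals that carry Avp flanked by loxP sites in its first intron and downstream of its 3' end. No library carries Cre without the floxed gene, so effects of the recombinase itself and of Avp deletion cannot be told apart. The promoter that drives Cre and the age of the animals are not given in the labels. The SMART-Seq HT kit, with 11 PCR cycles, turned 1 ng of RNA into each library. TPM keeps no record of read numbers, so the depth behind each value is unknown and no counting interval is given. Genes above 0 TPM numbered 50951 to 51890 in AVP-flox and 33576 to 58232 in the Cre libraries, lowest in AVP-flox;Cre 2. Genes at 1 TPM or more numbered 18211 to 18531 in AVP-flox. In the Cre libraries they ran from 16608 in AVP-flox;Cre 2 to 23412 in AVP-flox;Cre 4. The cause of this unevenness was not tested.

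Fatty acids are burned as coenzyme A esters. The carnitine shuttle carries them into mitochondria, where acyl-CoA dehydrogenases, hydratases, hydroxyacyl-CoA dehydrogenases and thiolases shorten the chain in a repeating cycle, and the electron transfer flavoproteins hand the electrons on to the respiratory chain. Peroxisomes shorten very long and branched chains with enzymes of their own. In the kidney the proximal tubule and the thick ascending limb are the segments best known for using fatty acids as fuel, while the inner medulla is poorly oxygenated and is known for its glycolysis.

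The libraries carried high levels of collecting duct genes, with Aqp2 at 5443 to 18131 TPM and the urea transporter gene Slc14a2 at 848 to 1447 TPM in all 8. Markers of 2 fuel-burning segments were present beside them and varied between libraries. The summed level of 7 thick limb and distal tubule markers ran from 964 to 2867 TPM in AVP-flox and from 1396 to 1691 TPM in the Cre libraries, with AVP-flox 2 lowest of all. The summed level of 16 proximal tubule markers ran from 63.1 to 851.5 TPM in AVP-flox and from 138.7 to 336.6 TPM in the Cre libraries. A single marker, Kap, made up the largest part of these sums, at 33.5 to 563 TPM in AVP-flox and 70.6 to 215 TPM in the Cre libraries. Genes of adipocytes and striated muscle, tissues that also oxidise fat, were near 0 (Adipoq 0 to 0.65 TPM, Ucp1 0.05 to 1.09 TPM, Ckm 0.03 to 0.65 TPM). Fewer cells of a type and less RNA per cell cannot be told apart in such bulk samples. Nothing in the labels ties each replicate to an animal of its own, so p-values may reflect no more than the spread among the 8 samples, which may be technical.

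Promoter sequence is shown for 5 of the genes whose levels changed. They were chosen by hand from the carnitine shuttle list, the cycle and the peroxisome, and do not stand for the other changed genes. RefSeq promoter windows on GRCm38.p6 were found by symbol for 30 of the 34 genes, all but Cpt1b, Acad9, Acaa2 and Decr1. The lines give bases before the RefSeq start site, 5' to 3' on the gene's own strand, without any base that GENCODE M21 places in an exon. Capitals mark GGGCGG, the GC box bound by Sp1-type factors, and AGGTCA, the core that nuclear receptors such as the PPAR and estrogen-related receptor families bind, each on either strand, so that CCGCCC and TGACCT are marked too.
Cpt1a, chr19:3323051-3323284, plus strand: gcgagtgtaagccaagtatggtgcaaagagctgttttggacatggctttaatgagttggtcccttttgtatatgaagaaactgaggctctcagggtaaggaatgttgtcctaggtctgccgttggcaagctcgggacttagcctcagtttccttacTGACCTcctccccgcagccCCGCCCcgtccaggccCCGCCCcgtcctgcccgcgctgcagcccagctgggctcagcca
Cpt1c, chr7:44974852-44975101, minus strand: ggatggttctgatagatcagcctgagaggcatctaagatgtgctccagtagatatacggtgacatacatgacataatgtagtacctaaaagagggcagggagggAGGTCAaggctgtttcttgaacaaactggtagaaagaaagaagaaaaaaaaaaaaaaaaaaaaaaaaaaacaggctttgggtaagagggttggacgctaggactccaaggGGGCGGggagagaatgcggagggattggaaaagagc
Cpt2, chr4:107923611-107923839, minus strand: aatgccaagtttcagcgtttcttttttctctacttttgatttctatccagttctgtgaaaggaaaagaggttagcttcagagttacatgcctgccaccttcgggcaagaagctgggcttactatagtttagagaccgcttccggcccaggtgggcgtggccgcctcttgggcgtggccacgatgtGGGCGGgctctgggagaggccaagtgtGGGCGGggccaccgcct
Hsd17b10, chrX:152001646-152001844, plus strand: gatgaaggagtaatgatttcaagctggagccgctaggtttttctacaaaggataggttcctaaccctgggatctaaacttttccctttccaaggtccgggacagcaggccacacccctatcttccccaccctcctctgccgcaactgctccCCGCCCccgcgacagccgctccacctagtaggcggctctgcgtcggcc
Acaa1a, chr9:119341160-119341293, plus strand: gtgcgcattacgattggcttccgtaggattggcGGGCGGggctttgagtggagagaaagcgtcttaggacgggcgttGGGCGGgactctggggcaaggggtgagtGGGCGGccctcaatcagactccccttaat

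In the full windows of 250 bases, a GC box was found in 21 of 31 member windows (67.7%, Acox2 having more than 1 window) against 32.7% of all 32851 windows, both strands searched. The member windows also held more G and C, with a median of 58.8% against 52.4%. AGGTCA was found in 5 member windows (16.1%, those of Cpt1a, Cpt1c, Acadvl, Acadm and Echs1, chosen by this match alone) against 14% of all windows. The consensus palindrome of the factor NRF1 was found in Acad12 and Etfdh (6.45%, against 0.782%). The extended core TCAAGGTCA and the cAMP response element TGACGTCA were in no member window, against 0.387% and 1.55% of all windows, and the direct repeat of AGGTCA with 1 base between the copies was in none, against 0.0335%. The extended core and the direct repeat contain AGGTCA, so their matches overlap with its matches. All 5 genes with printed sequence hold a GC box, while the changed genes Acadvl and Etfdh have none in their windows. These matches describe letters in these windows only.

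The oxidation genes did not move as a block. When the Cre libraries were compared with AVP-flox, 12 of the 34 changed (35.3%), 8 of them lower and 4 higher, and 22 did not pass the test. Over all 19043 genes tested, 27.3% were called, 13.1% as higher and 14.2% as lower, at an adjusted p below 0.05 (limma, Benjamini-Hochberg over all genes tested). The members' 11.8% higher and 23.5% lower stand beside those shares. Leaving out any of AVP-flox 1, 3 or 4 or AVP-flox;Cre 1 or 3 lowered the count of lower genes from 8 to 5, while the count of higher genes stayed at 4 without any 1 library. In the fits that gave 5, calls over all genes tested fell as well, from 5204 to between 3960 and 4554. The median log2 fold change of the 34 genes was -0.07, against -0.01 over all genes tested, and 25 of the 34 values were negative. Fold changes here are AVP-flox;Cre minus AVP-flox on the log2(TPM + 1) scale, which understates the change of low genes.

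Most changes were small. Of the 12 changed genes, 11 differed by less than a log2 value of 1 and only Cpt1c by more. In 11 of the 34 genes the libraries of the groups did not overlap, 7 lower and 4 higher, where 29.5% of all genes tested did not overlap, 14.9% lower and 14.7% higher. The summed level of the 34 genes was 4103, 3782, 4252 and 4076 TPM in AVP-flox 1 to 4 and 3989, 4189, 3871 and 3861 TPM in AVP-flox;Cre 1 to 4. These sums overlapped, with means of 4053 ± 197 and 3978 ± 153 TPM (SD, n = 4 per group). Levels within the list spanned a wide range, from Etfb, at a mean of 481.8 TPM in AVP-flox, through Ech1 (451 TPM), Eci1 (337 TPM) and Acaa2 (294 TPM), down to Cpt1c (5.37 TPM), Acaa1b (4.50 TPM) and Acox2 (1.71 TPM). The coefficient of variation between libraries had a median of 8.18% in AVP-flox and 9.41% in the Cre libraries, and was highest for Acox2, at 94.9% and 105%.

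**Figure D1:**
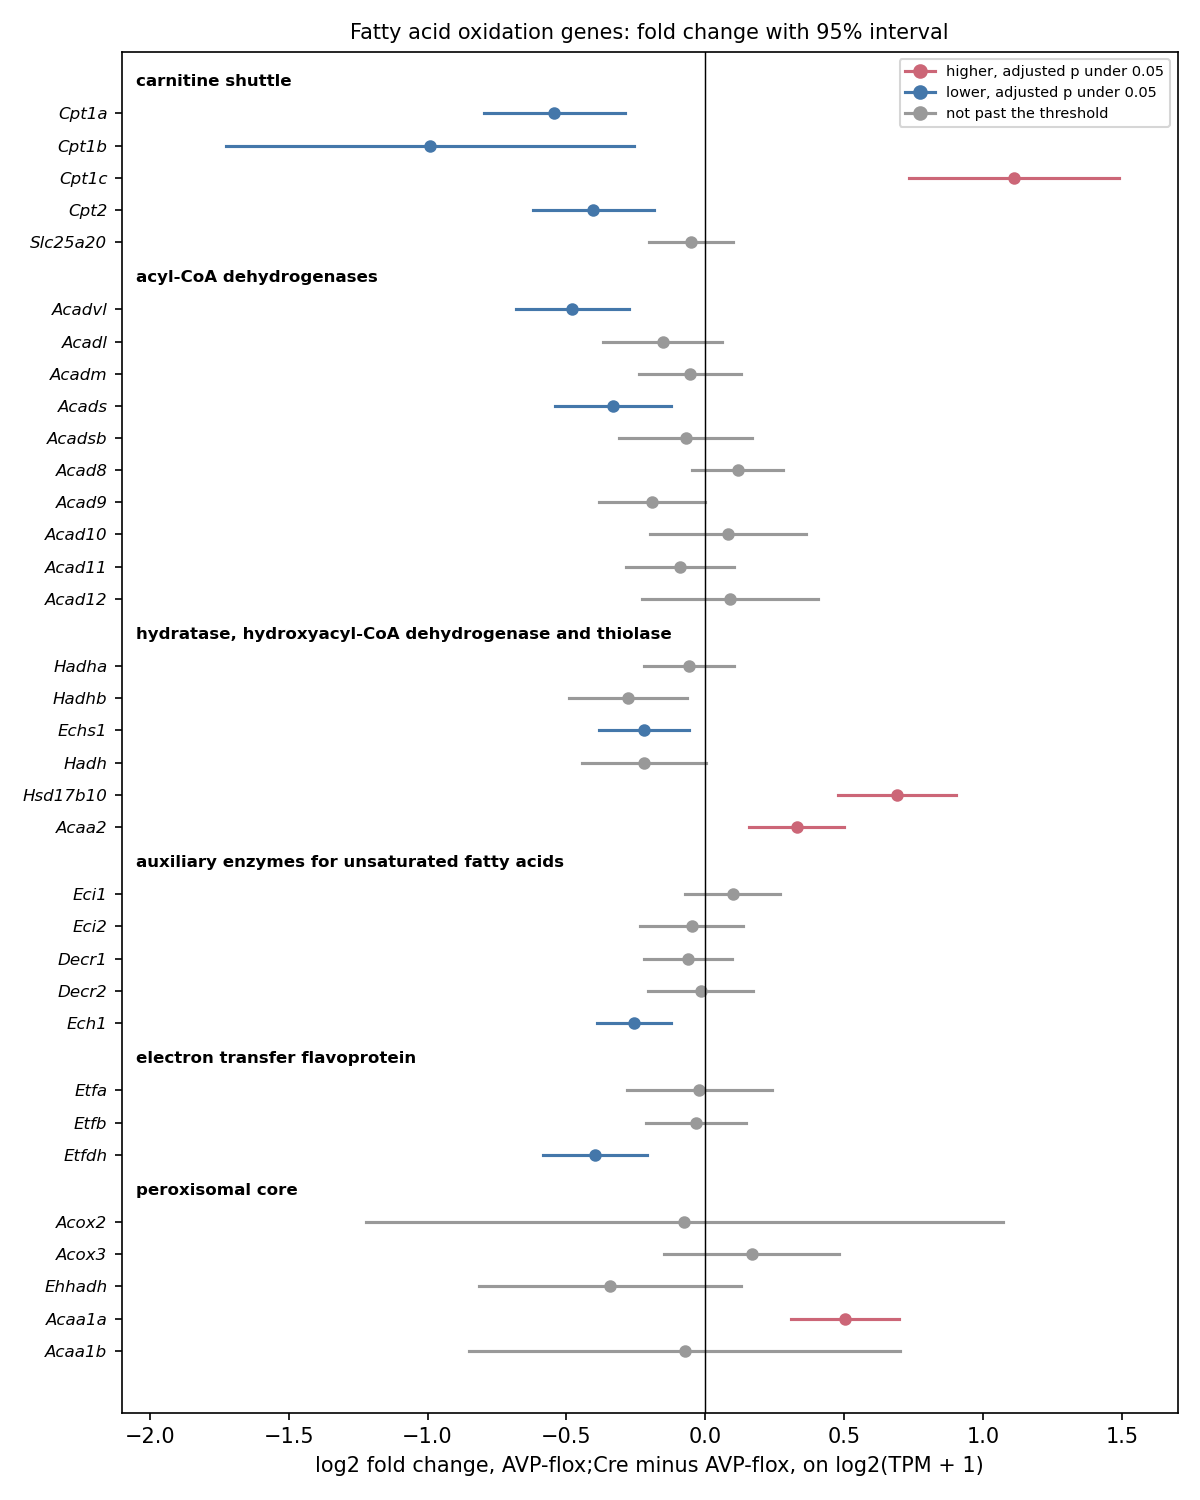
Log2 fold change of each of the 34 genes (AVP-flox;Cre minus AVP-flox on log2(TPM + 1), x axis) with its 95% interval, in the order of the steps described here and coloured by call. Points run from -0.99 for Cpt1b to 1.11 for Cpt1c, with 4 genes called higher, 8 called lower and the intervals of most others spanning 0.

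At the entry step, the list of carnitine shuttle genes held the 2 largest log2 fold changes among the 34 genes, of opposite sign (Cpt1b and Cpt1c). Of the 5 listed genes, 3 fell (Cpt1a, Cpt1b and Cpt2) and 1 rose (Cpt1c), with a median log2 fold change of -0.40. Cpt1c is a relative listed with the shuttle that has little transferase activity, and the other 4 values were negative. Cpt1a encodes the liver-type carnitine palmitoyltransferase 1, which sits in the outer mitochondrial membrane, is inhibited by malonyl-CoA and controls entry. It stood at 81.7, 81.5, 88.2 and 77.05 TPM in AVP-flox 1 to 4 and at 45.8, 66.2, 51.7 and 62.55 TPM in AVP-flox;Cre 1 to 4. Every Cre library was below every AVP-flox library, with Cre 1 and 3 lowest. The mean fell 1.45-fold, from 82.1 ± 4.6 to 56.6 ± 9.46 TPM, a log2 fold change of -0.54 (SE 0.11, adjusted p = 0.00675, limma), and an exact permutation test of the mean TPM gave p = 0.0286, two-sided, the smallest that 4 against 4 libraries allow. That same permutation p holds for each member below whose groups do not overlap.

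Cpt1b, the muscle-type enzyme, stood at 32.6, 10.9, 39.8 and 33.2 TPM in AVP-flox 1 to 4 and at 12.3, 14.0, 11.1 and 13.95 TPM in AVP-flox;Cre 1 to 4. AVP-flox 2 was below all 4 Cre libraries, and the other 3 AVP-flox libraries were above them. The log2 fold change was -0.99 (SE 0.33, adjusted p = 0.0494, limma), and the exact permutation test gave p = 0.143. Without AVP-flox 2 it was -1.39 (adjusted p = 0.000287). Leaving out any other library ended the call, with adjusted p between 0.0764 and 0.136. AVP-flox 2 was also the lowest AVP-flox library in the thick limb genes Umod, which encodes uromodulin, and Slc12a1. Slc12a1 encodes the sodium-potassium-chloride transporter of that segment. Umod was at 1404, 188, 1139 and 1162 TPM in AVP-flox 1 to 4 and between 377 and 521 TPM in the Cre libraries. Slc12a1 was at 682, 98.3, 577 and 624 TPM in AVP-flox 1 to 4 and between 97.3 and 189.7 TPM in the Cre libraries. Of the other thick limb and distal tubule markers, Cldn10 and Egf were also lowest in AVP-flox 2 (592 and 30.5 TPM). Cldn16 was instead the highest of AVP-flox there (52.75 TPM), and Slc12a3 and Pvalb, both low, were neither. Cldn16 and Cldn10 rose in the Cre libraries (log2 fold changes 0.69 and 0.27). With the level of Umod and Slc12a1 alone as a covariate, a fit chosen after seeing the data, the log2 fold change of Cpt1b was -0.37 (adjusted p = 0.0776). In GENCODE M21, 81.4% of the exonic bases of Cpt1b also belong to a readthrough gene, Gm44502, which was listed at 0 to 0.32 TPM, so the division of reads between them is uncertain.

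Cpt1c, a brain-enriched relative that lies in the endoplasmic reticulum and has little transferase activity, moved the other way. It was low, at 4.40, 6.04, 6.24 and 4.78 TPM in AVP-flox 1 to 4, and higher in every Cre library, at 10.7, 10.7, 13.3 and 16.8 TPM. The mean rose 2.4-fold, from 5.37 ± 0.91 to 12.9 ± 2.87 TPM, a log2 fold change of 1.11 (SE 0.17, adjusted p = 0.0013). Cpt1a, Cpt1b and Cpt1c together summed to 118.8, 98.4, 134.2 and 115.1 TPM in AVP-flox 1 to 4 and to 68.8, 90.9, 76.0 and 93.3 TPM in AVP-flox;Cre 1 to 4, which do not overlap. Within that sum Cpt1c made up 3.71 to 6.14% in AVP-flox and 11.8 to 18.0% in the Cre libraries. The share of Cpt1a, 65.7 to 82.8% and 66.6 to 72.9%, overlapped between the groups.

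**Figure D2:**
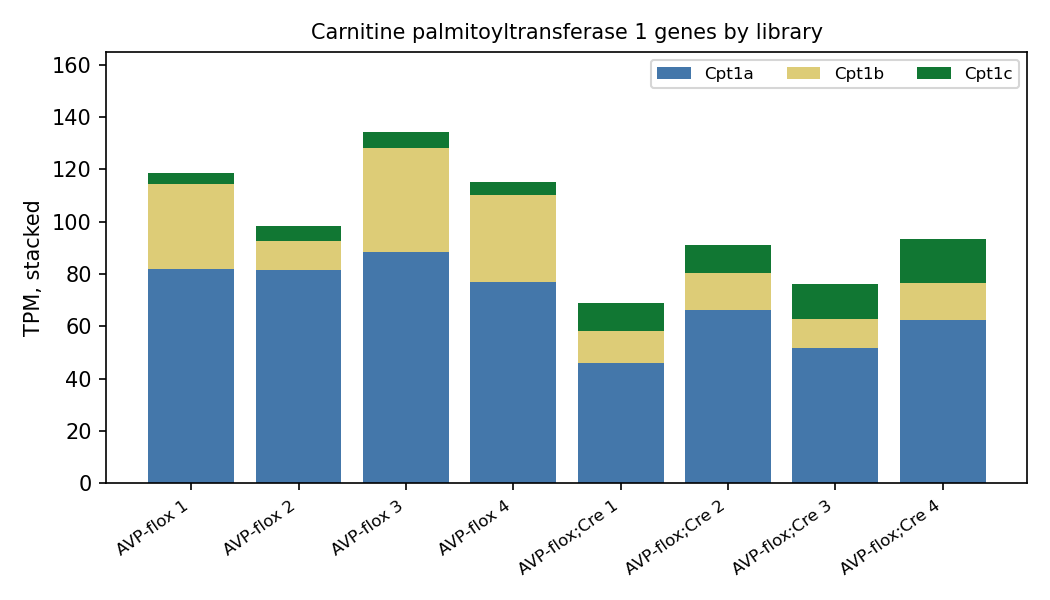
Stacked bars of the TPM of Cpt1a, Cpt1b and Cpt1c in each of the 8 libraries, so that bar height is their sum. The sum lies between 98.4 and 134.2 TPM in AVP-flox and between 68.8 and 93.3 TPM in the Cre libraries, and AVP-flox 2 stands apart from the other AVP-flox libraries by its small Cpt1b segment.

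Cpt2, which releases acyl-CoA on the matrix side of the inner membrane, was at 64.0, 55.6, 63.5 and 52.5 TPM in AVP-flox 1 to 4. In AVP-flox;Cre 1 to 4 it was at 40.5, 41.4, 44.7 and 50.5 TPM. The groups did not overlap, and the closest were AVP-flox 4 and AVP-flox;Cre 4. The mean fell 1.33-fold (log2 fold change -0.40, SE 0.10, adjusted p = 0.013). Slc25a20, the carnitine-acylcarnitine translocase between the 2 transferases, was at 107 ± 4.94 and 103.5 ± 5.86 TPM (SD, n = 4 per group). With a log2 fold change of -0.05 it missed the threshold (95% interval -0.20 to 0.10, adjusted p = 0.622, limma).

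Among the 10 acyl-CoA dehydrogenases, which start each round of the cycle, 2 fell, none rose and 8 did not pass, with a median log2 fold change of -0.08. The enzymes are graded by chain length. Acadvl, for very long chains, was at 208, 168, 208 and 222 TPM in AVP-flox 1 to 4 and at 137, 150.2, 135 and 153 TPM in AVP-flox;Cre 1 to 4. Every Cre library was below every AVP-flox library, and AVP-flox 2 was the lowest of its group. The mean fell 1.40-fold, from 202 ± 23.1 to 144 ± 8.98 TPM, a log2 fold change of -0.48 (SE 0.09, adjusted p = 0.00409). In GENCODE M21, 42.9% of its exonic bases overlap Dvl2 on the opposite strand, and the labels do not say that counting used strand. Dvl2 was at 13.5 to 20.7 TPM and was not past the threshold, with a log2 fold change of 0.12 (adjusted p = 0.543).

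Acads, for short chains, was at 34.6, 29.6, 33.5 and 35.5 TPM in AVP-flox 1 to 4 and at 25.5, 24.5, 25.3 and 29.7 TPM in AVP-flox;Cre 1 to 4. Only AVP-flox 2 and AVP-flox;Cre 4 overlapped, and narrowly. The log2 fold change was -0.33 (SE 0.09, adjusted p = 0.0245, limma), and the exact permutation test gave p = 0.0571. Leaving out any library other than AVP-flox 2 or AVP-flox;Cre 4 gave an adjusted p between 0.0553 and 0.0631.

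The medium-chain and long-chain enzymes between them did not pass. Acadm, the medium-chain dehydrogenase, was at 158, 127, 158 and 134 TPM in AVP-flox 1 to 4 and at 139.6, 138, 141 and 134 TPM in AVP-flox;Cre 1 to 4. Its Cre libraries all lay inside the range of AVP-flox (log2 fold change -0.06, 95% interval -0.24 to 0.13, adjusted p = 0.667). Acadl, the long-chain dehydrogenase, was at 134, 124, 127 and 126 TPM in AVP-flox 1 to 4 and at 105, 139.9, 103 and 113 TPM in AVP-flox;Cre 1 to 4. AVP-flox;Cre 2 was the highest of all 8 and the other 3 Cre libraries the lowest. The log2 fold change was -0.15 (95% interval -0.37 to 0.06, adjusted p = 0.269), and without AVP-flox;Cre 2 it was -0.25 (adjusted p = 0.0248).

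The remaining 6 dehydrogenases ran from a log2 fold change of -0.19 to 0.12, and none passed. They were Acadsb and Acad8, which act in isoleucine and valine breakdown, Acad9, which is also an assembly factor of respiratory complex I, and the less well understood Acad10, Acad11 and Acad12. Acad9 had the lowest value, -0.19 (adjusted p = 0.128). Its AVP-flox libraries, at 49.1, 55.95, 47.6 and 46.35 TPM, were all above its Cre libraries, at 39.4, 42.9, 45.5 and 45.9 TPM, and the highest Cre library lay close under the lowest AVP-flox library. Acad10 and Acad12 are neighbours that share sequence (13.0% and 16.0% of their 50-base stretches), so the division of reads between them is uncertain.

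**Figure D3:**
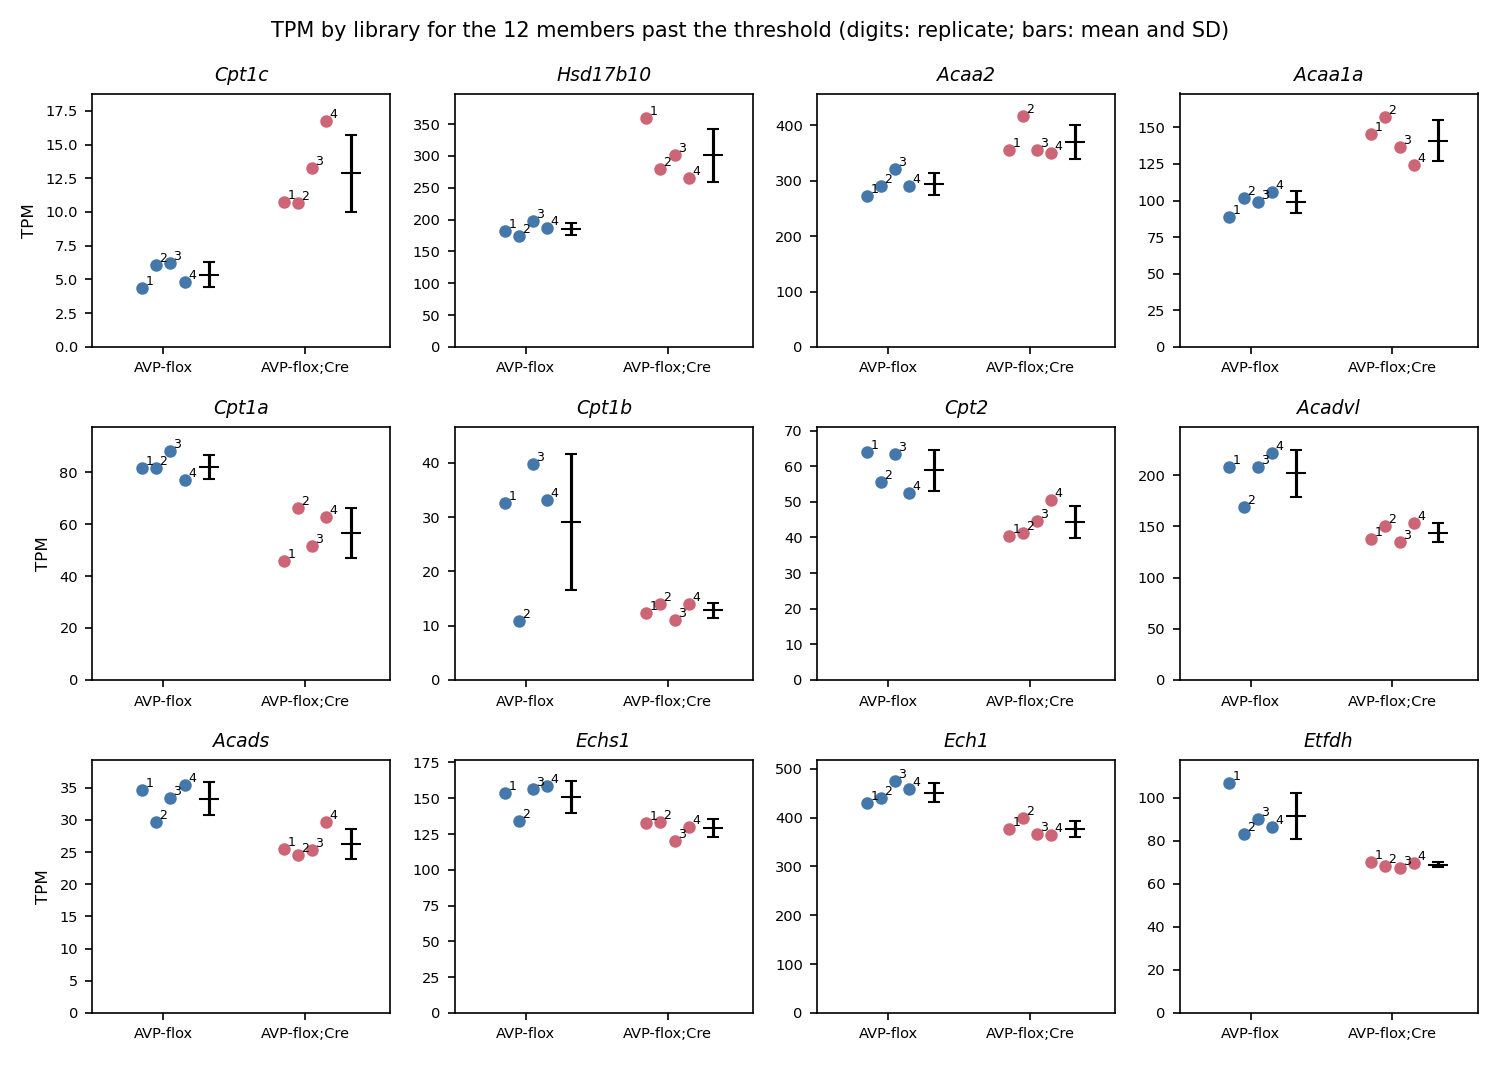
TPM of the 12 changed genes in every library (y axis, from 0 in each panel), with points numbered by replicate and a bar for the mean and SD of 4 libraries. Cpt1c, Hsd17b10, Acaa2 and Acaa1a are higher in every AVP-flox;Cre library, and of the 8 lower genes only Cpt1b and Acads overlap.

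In the rest of the mitochondrial cycle, 2 of 6 genes rose, 1 fell and 3 did not pass. Hsd17b10 encodes a short-chain hydroxyacyl-CoA dehydrogenase that also serves in isoleucine breakdown and as a subunit of the mitochondrial RNase P. It was at 183, 174, 197 and 188 TPM in AVP-flox 1 to 4 and at 359, 279, 302 and 265 TPM in AVP-flox;Cre 1 to 4. The Cre libraries were all higher, Cre 1 most of all. The mean rose 1.63-fold, from 185 ± 9.81 to 301 ± 41.7 TPM, a log2 fold change of 0.69 (SE 0.10, adjusted p = 0.000722). The gene lies on the X chromosome, and libraries with a male expression pattern were AVP-flox 1 and AVP-flox;Cre 1 and 2. With that pattern as a covariate its log2 fold change was 0.67 (adjusted p = 0.0017).

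Acaa2, a mitochondrial thiolase, was at 273, 291, 321 and 290.5 TPM in AVP-flox 1 to 4. It was at 356, 417, 357 and 351 TPM in AVP-flox;Cre 1 to 4. All Cre libraries were above all AVP-flox libraries, and Cre 2 stood apart from the other 3. The mean rose 1.26-fold (log2 fold change 0.33, SE 0.08, adjusted p = 0.0111). Echs1, the short-chain enoyl-CoA hydratase, was at 153, 134, 156 and 159 TPM in AVP-flox 1 to 4 and at 133, 133, 119.8 and 129.6 TPM in AVP-flox;Cre 1 to 4. Its groups did not overlap, though AVP-flox 2 and AVP-flox;Cre 2 lay close together. The log2 fold change was -0.22 (SE 0.07, adjusted p = 0.0463), and the call was lost on leaving out any library except AVP-flox 2 (adjusted p between 0.058 and 0.119).

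Hadha and Hadhb, divergent neighbours on chromosome 5 that encode the alpha and beta subunits of the trifunctional protein for long chains, did not pass. Hadha was at 95.2, 102, 109.7 and 98.7 TPM in AVP-flox 1 to 4 and at 88.4, 101, 100.3 and 99.4 TPM in AVP-flox;Cre 1 to 4, which overlap (log2 fold change -0.06, 95% interval -0.22 to 0.11, adjusted p = 0.605). Hadhb was at 137, 105, 139 and 132 TPM in AVP-flox 1 to 4 and at 101, 102, 103.5 and 113 TPM in AVP-flox;Cre 1 to 4. As for Cpt1b, AVP-flox 2 lay with the Cre libraries and the other 3 AVP-flox libraries above them. The log2 fold change of Hadhb was -0.28 (95% interval -0.49 to -0.07, adjusted p = 0.0548). It was -0.37 without AVP-flox 2 (adjusted p = 0.00486) and -0.13 with Umod and Slc12a1 as a covariate (adjusted p = 0.242). The ratio of Hadha to Hadhb was 0.69, 0.98, 0.79 and 0.75 in AVP-flox 1 to 4 and 0.88, 0.99, 0.97 and 0.88 in AVP-flox;Cre 1 to 4, again with AVP-flox 2 among the Cre values. Hadh, the short-chain hydroxyacyl-CoA dehydrogenase, missed the threshold, at a log2 fold change of -0.22 (adjusted p = 0.134). Without AVP-flox;Cre 2, the highest of its group, it passed the threshold (-0.31, adjusted p = 0.0295).

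Of the 5 auxiliary enzymes that prepare unsaturated chains for the cycle, 1 fell and 4 did not pass. Ech1, a dienoyl-CoA isomerase and one of the most abundant members, was at 430.4, 439, 475 and 459 TPM in AVP-flox 1 to 4 and at 378, 399.9, 367 and 365 TPM in AVP-flox;Cre 1 to 4. The groups did not overlap, and the mean fell 1.20-fold (log2 fold change -0.26, SE 0.06, adjusted p = 0.0107). The enoyl-CoA isomerases Eci1 and Eci2 and the dienoyl-CoA reductases Decr1, of mitochondria, and Decr2, of peroxisomes, ran from -0.06 to 0.10 with adjusted p from 0.387 to 0.91.

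Of the 3 genes for electron transfer out of the cycle, 1 fell and 2 did not pass. Etfdh encodes the oxidoreductase that passes electrons from the flavoprotein to ubiquinone. It was at 107, 83.0, 90.0 and 86.2 TPM in AVP-flox 1 to 4 and at 70.2, 68.4, 67.5 and 69.6 TPM in AVP-flox;Cre 1 to 4. The Cre libraries were all lower and lay within 3 TPM of each other, the tightest group of any member (coefficient of variation 1.76%). The mean fell 1.33-fold, from 91.6 ± 10.7 to 68.9 ± 1.21 TPM, a log2 fold change of -0.40 (SE 0.08, adjusted p = 0.00695). Etfa and Etfb, the 2 subunits of the flavoprotein itself, did not pass. Etfa was at 263, 172, 229.6 and 234 TPM in AVP-flox 1 to 4, with AVP-flox 2 lowest, and at 211, 220.4, 210.1 and 235 TPM in AVP-flox;Cre 1 to 4 (log2 fold change -0.02, 95% interval -0.28 to 0.24, adjusted p = 0.916). Etfb was at 475, 447, 526 and 479 TPM in AVP-flox 1 to 4 and at 496, 509.7, 469 and 412 TPM in AVP-flox;Cre 1 to 4 (log2 fold change -0.03, 95% interval -0.21 to 0.15, adjusted p = 0.805). Both sets overlapped. In GENCODE M21, 53.0% of the exonic bases of Etfb are shared with another gene, listed as Etfbl at 0.40 to 1.06 TPM.

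Of the 5 genes listed as the peroxisomal core, which leaves out Decr2 given above, 1 rose and 4 did not pass. Acaa1a, a peroxisomal thiolase, was at 88.8, 102, 99.3 and 106 TPM in AVP-flox 1 to 4 and at 146, 157, 137 and 124 TPM in AVP-flox;Cre 1 to 4. The groups did not overlap. The mean rose 1.42-fold, from 99.0 ± 7.3 to 141 ± 13.8 TPM, a log2 fold change of 0.50 (SE 0.09, adjusted p = 0.00251). Its near copy Acaa1b was at 8.05, 2.28, 5.56 and 2.09 TPM in AVP-flox 1 to 4 and at 2.79, 5.39, 3.65 and 3.35 TPM in AVP-flox;Cre 1 to 4 (log2 fold change -0.07, adjusted p = 0.902). Acaa1b shares 34.4% of its 50-base stretches with Acaa1a, and 15.6% of those of Acaa1a are in Acaa1b, so low Acaa1b values in particular are uncertain.

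Acaa1b was highest in AVP-flox 1 and 3, the libraries with the most proximal tubule RNA, where Slc34a1, the phosphate transporter of that segment, was at 41.95 and 23.2 TPM against 2.61 to 12.1 TPM in the other 6. Ehhadh, the bifunctional hydratase and dehydrogenase of peroxisomes, was highest in the same libraries. It was at 19.8, 10.6, 17.6 and 10.3 TPM in AVP-flox 1 to 4 and at 9.6, 9.55, 11.7 and 12.8 TPM in AVP-flox;Cre 1 to 4. Its log2 fold change was -0.34 (95% interval -0.81 to 0.13, adjusted p = 0.267). Acox2, the oxidase for branched chains and bile acid intermediates, was at 0.19 to 3.99 TPM with the groups overlapping, and Acox3, the pristanoyl-CoA oxidase, was at 20.2 to 32.3 TPM. Neither passed (log2 fold changes -0.07 and 0.17, adjusted p = 0.932 and 0.423).

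**Figure D4:**
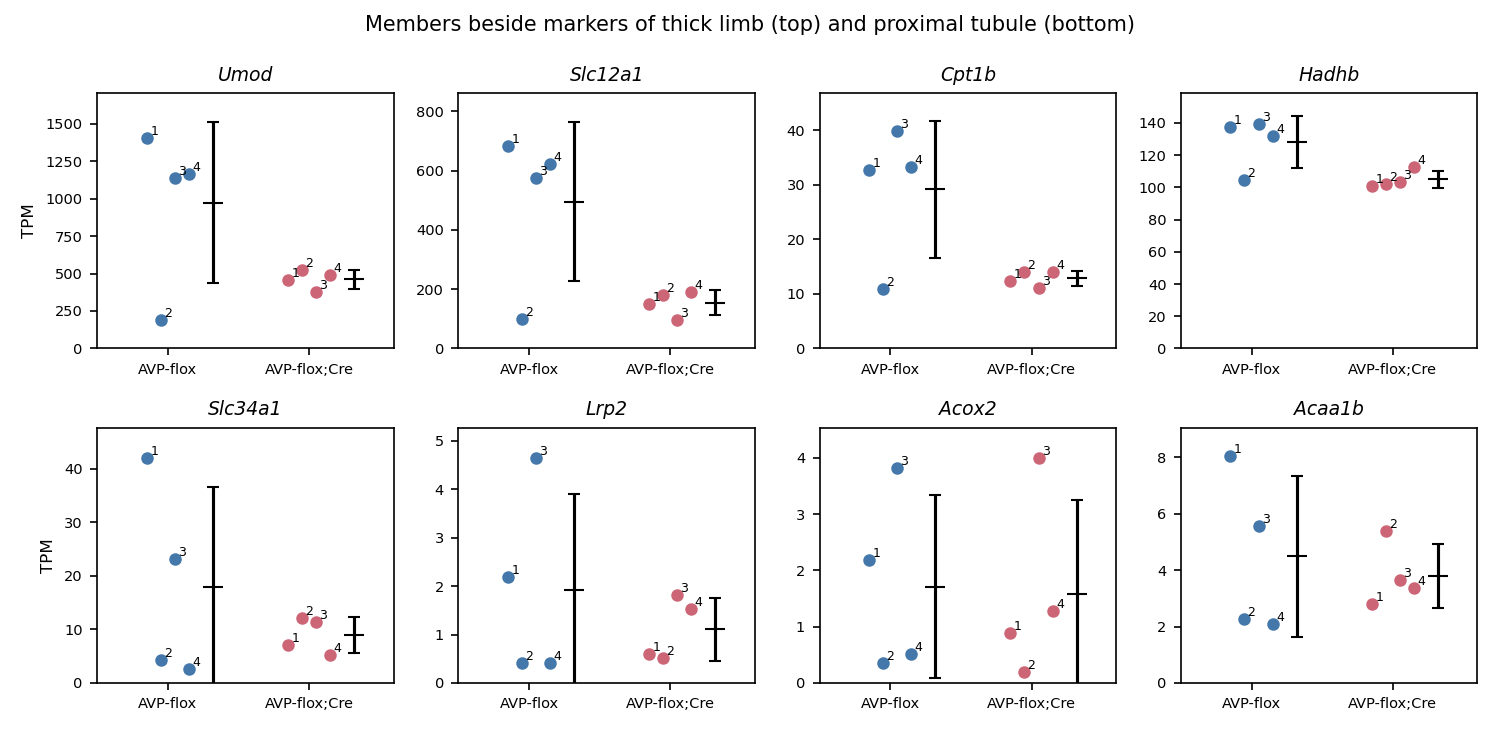
TPM by library (y axis, from 0 in each panel, points numbered by replicate, bars for mean and SD of 4 libraries, cut at 0) of the thick limb markers Umod and Slc12a1 beside Cpt1b and Hadhb in the upper row, and of the proximal tubule markers Slc34a1 and Lrp2 beside Acox2 and Acaa1b in the lower row. In the upper row AVP-flox 2 lies below the other AVP-flox libraries in every panel, and in the lower row AVP-flox 1 and 3 lie above AVP-flox 2 and 4.

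AVP-flox 2 was the lowest AVP-flox library for 15 of the 34 genes (44.1%, against 20.4% of all genes tested), among them 5 of the 8 that fell. AVP-flox 3 was the highest for 14 (41.2%, against 19.1%). In the fit with the 2 thick limb markers as a covariate, 4 of the 8 lower genes kept their call (Cpt1a -0.52, Acadvl -0.34, Ech1 -0.24 and Etfdh -0.32, adjusted p from 0.0111 to 0.0405), while Cpt1b (-0.37), Cpt2 (-0.36), Acads (-0.24) and Echs1 (-0.13) stayed negative with adjusted p from 0.0597 to 0.208. All 4 higher genes kept theirs. Calls over all genes tested fell from 5204 to 4089 in that fit. The 2 markers had lower means in the Cre libraries, so their level and genotype cannot be fully told apart in it. Of the 6 thick limb and distal markers tested, Cldn16 and Cldn10 rose and 4 did not pass, Umod and Slc12a1 among them (log2 fold changes -0.75 and -1.39, adjusted p = 0.343 and 0.0876). None of the 14 proximal tubule markers tested passed, with a median log2 fold change of -0.25. Of 12 principal and inner medullary collecting duct cell markers, 5 rose and 3 fell. Slc14a2 was among the former (0.45, adjusted p = 0.00438, limma) and Aqp2 among the latter (-1.35, adjusted p = 3.38e-05, limma). Their sum, of which Aqp2 was the largest part, was 21933 to 26431 TPM in AVP-flox and 14368 to 16809 TPM in the Cre libraries. Summed fibroblast, pericyte and smooth muscle markers were 131 to 172 TPM in AVP-flox and 269.7 to 346 TPM in the Cre libraries, and 5 of 7 rose. Summed intercalated cell markers were 249.5 to 375 and 364 to 483 TPM, with 4 of 8 tested genes higher, summed endothelial markers 2287 to 2376 and 1881 to 1951 TPM, with 2 of 7 higher and 2 lower, and summed leukocyte markers 133 to 217 and 154 to 248 TPM, with 1 of 8 higher. The part of these other cell types in the changes of the 12 genes was not tested beyond these fits.

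Upstream of the shuttle, 1 of 13 tested genes of fatty acid uptake and activation rose and 2 fell (23.1% changed, beside 27.3% of all genes tested), with a median log2 fold change of -0.01. Acsl1 and Acsl5, which make the acyl-CoA that Cpt1 uses, fell from 72.4 ± 10.3 to 45.6 ± 6.43 TPM and from 133 ± 6.38 to 76.2 ± 7.16 TPM (log2 fold changes -0.65 and -0.80, adjusted p = 0.00457 and 0.000122), and the transporter gene Slc27a1 rose (0.67, adjusted p = 0.000585). Of 4 genes of carnitine supply and acylcarnitine handling, Crat, the carnitine acetyltransferase, fell from 75.3 ± 3.52 to 44.0 ± 2.46 TPM (-0.76, adjusted p = 8.88e-05). Slc22a5, the carnitine importer, rose (0.37, adjusted p = 0.0315). In the list for malonyl-CoA, the inhibitor of Cpt1, and AMP-activated kinase, 1 of 10 rose (Prkag2) and 3 fell (Prkag1, Stk11 and Mlycd), 40% in all. Mlycd, which breaks malonyl-CoA down, had a log2 fold change of -0.53 (adjusted p = 0.033). The carboxylases that make malonyl-CoA, Acaca and Acacb, did not pass (-0.26 and -0.56, adjusted p = 0.155 and 0.0715).

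Of 15 tested nuclear receptors and cofactors known to control these enzymes, 20% changed, beside 27.3% of all genes tested. There 1 rose (Nrip1, 0.29, adjusted p = 0.0314) and 2 fell (Ncor1 and Rxra, -1.04 and -0.41, adjusted p = 0.00858 and 0.0127). Ppara was low, at 1.97 to 3.21 TPM in AVP-flox and 0.62 to 2.91 TPM in the Cre libraries, and did not pass (-0.41, adjusted p = 0.308). Ppargc1a, Esrra and Hnf4a did not pass either (-0.09, -0.15 and -0.33, adjusted p = 0.765, 0.497 and 0.511). Of 11 other PPAR target genes tested, 1 rose and 3 fell (36.4%). The thioesterase genes Acot1 and Acot2 fell 3.35-fold and 2.16-fold (-1.66 and -0.97, adjusted p = 0.000157 and 0.00111), more than any of the 34 genes that fell without overlap, and Angptl4 fell too (-0.63, adjusted p = 0.016). Vnn1, a pantetheinase gene, rose from 3.67 ± 1.25 to 12.5 ± 3.77 TPM (1.52, adjusted p = 0.00285). Pdk4, a kinase that restrains pyruvate oxidation, did not pass (-0.24, adjusted p = 0.266). The list was drawn up from PPAR targets known in other tissues, and its median log2 fold change was -0.24.

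Pathways that share cofactors or products with the cycle are set beside the same shares of all genes tested, 13.1% higher and 14.2% lower. Of 15 other peroxisomal genes tested, 2 rose and 3 fell (13.3% and 20%), with Pex16 and Phyh at -0.43 and -0.40 (adjusted p = 0.00881 and 0.0101), and Hsd17b4, the other bifunctional enzyme of peroxisomes, did not pass (0.07, adjusted p = 0.408). Of 17 genes of branched-chain amino acid breakdown, which feeds electrons into the same flavoprotein, 1 rose and 5 fell (5.88% and 29.4%), with Mmut, Dld and Dbt at -0.64, -0.48 and -0.57. Of 5 ketone body genes, 3 fell (60%) and none rose, with Bdh1 and Oxct1 at -1.32 and -0.90 (adjusted p = 0.00123 and 0.00452). Oxct1 was at 97.6 TPM in AVP-flox 2 against 169 to 177 TPM in the other AVP-flox libraries, and between 71.2 and 87.4 TPM in the Cre libraries. Of 16 citric acid cycle genes, which burn the acetyl-CoA made by the thiolases, 1 rose and 6 fell (6.25% and 37.5%), with Mdh2 and Cs at -0.34 and -0.28 (adjusted p = 0.0041 and 0.0104). The list medians were -0.17 for the peroxisomal, -0.18 for the branched-chain, -0.62 for the ketone body and -0.22 for the citric acid cycle genes, against -0.01 over all genes tested. The share of RNA from mitochondrially encoded genes was 4.42, 2.35, 4.13 and 3.75% in AVP-flox 1 to 4 and 2.40 to 2.85% in AVP-flox;Cre, again with AVP-flox 2 apart from its group.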

How the data were processed

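The authors deposited 1 table of TPM values, with 78298 gene identifiers and 8 library columns, each with the same total within 2.04 TPM. The submitters' processing notes name STAR and RSEM without a version; build and annotation release: not given in the sources used here. Columns named WT and KO were read as AVP-flox and AVP-flox;Cre by replicate number. Symbols shared by identifiers were summed (312 symbols), leaving 77981 genes. The 34 members, the gene lists, the tests and the rule for naming genes were chosen with earlier results of these data known. That rule gave full values to members past the threshold and to a fixed set of members, and from other lists named up to 3 changed genes with the smallest adjusted p and a fixed set of regulators. Some genes were named outside it, as neighbours or for a marker value, and the values of some that it names are not reported here.

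With R 4.3.3, limma 3.58.1 and statmod 1.5.0, the 19043 genes averaging 1 TPM or more were fitted as log2(TPM + 1) with a mean-variance trend, two-sided, Benjamini-Hochberg adjusted over all of them, threshold 0.05. The fit was tested on simulated data. Exact permutation tests compared mean TPM. GENCODE M21 on GRCm38, perhaps not the authors' release, gave exon overlaps, shared 50-base stretches and GC content (87.4% of tested genes matched). RefSeq gave promoters. Count tests were not run, as TPM keeps no counts. Alternatives are given with the limits.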

Additional observations from a re-analysis of the deposited data

Results flagged for a closer look

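Of 68 sets of 4 libraries checked (34 genes in 2 groups), 3 had 1 library far from the others, measured as the gap to its nearest neighbour over the whole range. Chance alone marks about 1 in 20 such sets. Hadha in AVP-flox;Cre had a gap of 0.844 of the range, with AVP-flox;Cre 1 at 88.4 TPM against 99.4 to 101 TPM in the other 3. Acaa2 in AVP-flox;Cre had a gap of 0.911, with AVP-flox;Cre 2 at 417 TPM against 351 to 357 TPM. Decr2 in AVP-flox had a gap of 0.866, with AVP-flox 1 at 46.1 TPM against 52.5 to 53.5 TPM. The cause was not tested for any of the 3.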

How the results depend on the processing

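Over 27 alternatives the count of higher genes stayed at 3 or 4 and the median log2 fold change of the 34 genes stayed negative, from -0.12 to -0.04 with each library left out. The count of lower genes, 8, was 3 with no filter on low values, 5 with median-of-ratios scaling, 1 without AVP-flox 1 and 3 together (Etfdh) and 4 with the thick limb markers as a covariate, an alternative chosen after seeing the data, and it ran from 5 to 9 with each library left out. Calls over all genes, 5204, were 2736 with no filter, 5151 with median-of-ratios scaling and 4089 with the thick limb markers as a covariate. They were 2538 without AVP-flox 1 and 3, and 2224 without AVP-flox 2 together with Cre 2 and 4. With each library left out they ran from 3960 to 4769. Cpt1c, Hsd17b10 and Acaa1a were called under all 27 alternatives. Cpt1b and Echs1 were called under 10 each (adjusted p from 0.000287 to 0.379 and from 0.0154 to 0.245), Acads under 18, Cpt2 under 23, Ech1 under 24, Cpt1a and Acaa2 under 25, and Acadvl and Etfdh under 26. Hadhb gained a call under 8. Correcting for GC content left 4 higher and 8 lower, with Echs1 losing its call and Hadhb gaining one. The cause of these losses was not tested.

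With the replicate number as a block 4 genes were higher and 6 lower, Cpt1b and Echs1 losing their calls, and 4431 genes were called in all. Deviations of same-numbered libraries correlated at 0.001, 0.015, 0.095 and 0.004, and only AVP-flox 3 correlated best with its own number, so the numbers were not taken as pairing the libraries.

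Only genes that were not called changed sign. With quantile scaling Decr2 was at 0.006, with sample weights Acox2 at 0.005, and with sex pattern as a covariate Decr2 at 0.018 and Acox2 at 0.031. With proximal tubule markers as a covariate Etfa was at 0.018, Acox2 at 0.17 and Acaa1b at 0.12. Without AVP-flox 1 and 3 together Acadm was at 0.083, Acadsb at 0.019, Etfa at 0.12, Etfb at 0.023, Acox2 at 0.65, Ehhadh at 0.049 and Acaa1b at 0.56. On leaving out AVP-flox 2 together with Cre 2 and 4, Acad10 was at -0.021, Acad12 at -0.067 and Acox2 at 0.11. With thick limb markers as a covariate Acadm was at 0.031, Acadsb at 0.072, Etfa at 0.18, Etfb at 0.015, Acox2 at 0.19 and Acaa1b at 0.26. With each library left out, Etfa ran from -0.14 to 0.06, Acox2 from -0.46 to 0.27, Acaa1b from -0.30 to 0.22, Decr2 from -0.067 to 0.025, Etfb from -0.071 to 0.031, Acad10 from -0.022 to 0.13 and Acad12 from -0.016 to 0.17. Read depth is unknown, so the precision of low genes such as Acox2 and Acaa1b is known only from the spread between libraries.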
